A study of Mus musculus with 15 samples.

Results

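Wnt signalling genes were examined in cultured mouse lymph node lymphatic endothelial cells (LECs), which form the walls of the node's sinuses and lymphatic vessels. The members were taken by gene symbol alone, as the Wnt ligands, the Frizzled receptors (Fzd), the R-spondins (Rspo), the Dickkopfs (Dkk), the secreted Frizzled-related proteins (Sfrp), Lrp5, Lrp6, Axin2, Lef1 and Tcf7. The rule found 46 members among the 45706 genes of the table. There were 19 Wnt ligands, 10 Frizzleds, 4 R-spondins, 4 Dickkopfs, 4 Sfrps, the 2 Lrp co-receptors and the 3 genes Axin2, Lef1 and Tcf7. A filter on low counts kept 28 of the 46 for testing, and 18 were too low to test.

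The series asked how LECs respond to VEGF-C, the secreted growth factor that acts on lymphatic endothelium through the receptor Flt4. The 3 groups, of 5 libraries each (A to E), were sequenced after 72 h: cells left unstimulated, cells given 10 ng/mL and cells given 100 ng/mL of purified recombinant murine VEGF-C made in HEK-293E cells. All 15 libraries came from LECs of female C57Bl/6 mice, defined as Pdpn+ CD31+ CD45- cells, whose axillary, brachial, cervical, inguinal and popliteal nodes had been pooled. All groups were grown in MEMα with 10% fetal bovine serum. Whether the 5 libraries of a group are separate cultures is not stated, so the p-values below rest on library-to-library spread that may be technical.

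Wnt proteins are secreted, lipid-modified ligands that bind Frizzled receptors on the cell surface. With Lrp5 or Lrp6 as co-receptor they stabilise β-catenin, which joins TCF/LEF factors such as Lef1 and Tcf7 on target genes, among them the feedback inhibitor Axin2, while ligands such as Wnt5a act largely without β-catenin, through planar cell polarity and calcium signalling. R-spondins raise the amount of Frizzled at the surface, Dickkopfs such as Dkk1 and Dkk2 block Lrp5 and Lrp6, and Sfrps bind Wnts outside the cell. In mouse lymphatic vessels β-catenin signalling is known for its part in valve formation, and in zebrafish Wnt5b is known for its part in lymphatic specification.

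Library totals lay between 27784906 and 38590841 estimated counts. Abundance within a gene is given here as CPM, counts scaled to 1 common library size with TMM scaling (trimmed mean of M-values), and levels of different genes are compared only as the deposited RPKM, which also divides by gene length. The first principal component of log2 CPM held 64.8% of the variance and set the 100 ng/mL libraries, at 38.8 to 78.5, apart from all others. On that component 100 ng/mL B was the lowest of its group by far, the other 4 lying at 69.8 to 78.5. The second component held 12.6% of the variance, and on it a library from each group stood apart. These were 100 ng/mL B at -45.05, 10 ng/mL D at -28.21 and unstimulated E at -41.08, with all others between -5.52 and 30.78. The cause of this second component was not tested. Library 100 ng/mL B had the highest value of its group in 14 of the 28 tested members and in 11 of the 17 that fell. The lymphatic markers Flt4, Lyve1, Prox1 and Pdpn were present in all groups, while Mmrn1 and Ccl21a were close to 0. Summed over all 12 lymphatic markers, levels were 2098 to 2453, 2257 to 2581 and 2895 to 4882 CPM at 0, 10 and 100 ng/mL. Summed over 12 blood endothelial markers, they were 2695 to 3536, 2638 to 3764.5 and 2643 to 3146 CPM at the same doses. Markers of fibroblastic and mural cells differed between the groups, with a summed level over 18 genes of 1427 to 3280 CPM in the unstimulated libraries, 1355 to 3321 CPM in those at 10 ng/mL and 145 to 529 CPM in those at 100 ng/mL.

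Promoter sequence is shown for the called Wnt ligand and the called secreted inhibitor with the smallest p, Wnt5b and Sfrp5, and for Axin2, the pathway's feedback gene, since all 3 were lower at 100 than at 10 ng/mL. Each line gives the 250 bases before a RefSeq transcript start in GRCm38.p6, 5′ to 3′ on the gene's strand. Capitals mark the TCF/LEF motif CTTTGAT, the one motif searched, which was read on both strands (ATCAAAG on the other) and overlaps no second motif.
Wnt5b, chr6:119449387-119449636, minus strand: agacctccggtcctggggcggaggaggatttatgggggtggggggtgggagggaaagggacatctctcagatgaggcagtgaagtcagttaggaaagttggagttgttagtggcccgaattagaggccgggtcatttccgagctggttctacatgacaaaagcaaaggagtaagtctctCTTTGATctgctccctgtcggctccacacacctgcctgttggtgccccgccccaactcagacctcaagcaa
Sfrp5, chr19:42202253-42202502, minus strand: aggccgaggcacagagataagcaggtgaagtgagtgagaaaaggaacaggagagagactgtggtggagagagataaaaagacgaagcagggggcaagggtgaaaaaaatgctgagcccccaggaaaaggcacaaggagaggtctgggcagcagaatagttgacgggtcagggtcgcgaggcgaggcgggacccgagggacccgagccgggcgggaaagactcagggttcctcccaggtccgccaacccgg
Axin2, chr11:108920099-108920348, plus strand: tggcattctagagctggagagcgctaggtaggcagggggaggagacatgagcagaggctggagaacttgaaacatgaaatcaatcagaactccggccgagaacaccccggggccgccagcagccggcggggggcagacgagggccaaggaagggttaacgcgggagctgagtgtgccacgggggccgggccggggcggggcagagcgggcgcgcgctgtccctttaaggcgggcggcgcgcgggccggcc
The Wnt5b window is that of 1 of its 3 annotated starts, and its motif begins 71 bases before the start. The other two Wnt5b windows, and those of Sfrp5 and Axin2, do not hold these 7 letters, which says nothing of TCF/LEF binding elsewhere. Of 32851 windows of this length in the RefSeq table, 1053 (3.21%) held the motif, and of 37 windows for 30 of the 46 members, 2 did. The second was a Wnt11 window, chr7:98834862-98835111 on the plus strand, where the motif begins 51 bases before the start. Wnt11 was too low to test, so the motif marked 1 tested member only, of the 16 tested members that have a window.

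Per gene length, Fzd6 was the most abundant member at every dose. Its RPKM averaged 62.3 ± 5.002 in unstimulated cells, 60.5 ± 3.66 at 10 ng/mL and 44.9 ± 15.6 at 100 ng/mL (SD, n = 5 each, as throughout), and in unstimulated cells its mean lay above that of 99.2% of all genes. Fzd6 is a Frizzled best known for planar cell polarity. Sfrp1, a secreted antagonist that binds Wnts and Frizzleds, came second in unstimulated cells at 36.5 ± 6.47 RPKM and at 10 ng/mL at 26.8 ± 3.57 RPKM. At 100 ng/mL it had rank 5, at 5.36 ± 3.56 RPKM. Lrp5 averaged 21.2 ± 0.870 RPKM in unstimulated cells, 20.4 ± 1.87 RPKM at 10 ng/mL and 14.4 ± 1.44 RPKM at 100 ng/mL. Fzd4 followed at 9.07 ± 0.748, 9.52 ± 0.711 and 11.1 ± 1.43 RPKM over the same 3 doses, and Lrp6 at 7.47 ± 0.675, 7.88 ± 0.572 and 8.10 ± 0.684 RPKM. These 5 genes were the top of the order at every dose, with Fzd8 sixth. In unstimulated cells the library ranges of neighbours in the order overlapped for Fzd4 and Lrp6 and for every pair from Fzd7 down to Rspo1. At 10 ng/mL they overlapped for Sfrp1 and Lrp5 and for every pair from Fzd5 down to Rspo1. At 100 ng/mL they did for Lrp6, Sfrp1 and Fzd8, for Fzd7 and Fzd5 and for every pair from Dkk2 down to Rspo1. The order of those genes is thus not fixed beyond their spread. The most abundant ligands, Wnt5a and Wnt9a, were far lower, at 1.26 ± 0.430 and 1.26 ± 0.127 RPKM in unstimulated cells. The summed RPKM of all 46 members was 157 ± 2.91 in unstimulated cells, 143 ± 1.91 at 10 ng/mL and 93.8 ± 12.4 at 100 ng/mL. It rests largely on few genes. Fzd6 and Sfrp1 made up 39.8% and 23.3% of it in unstimulated cells, and 47.8% and 5.71% at 100 ng/mL.

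**Figure D1:**
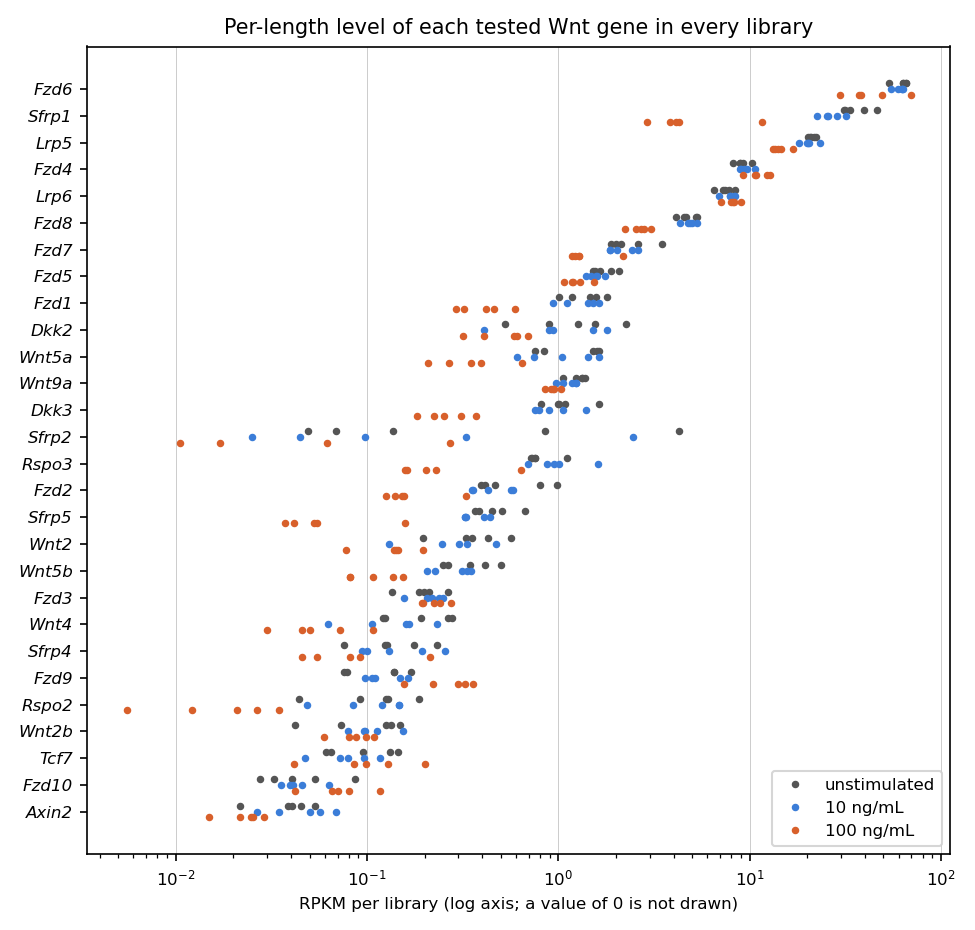
RPKM of each of the 28 tested Wnt genes in every library (log axis; a value of 0 is not drawn), with genes ordered from top to bottom by their unstimulated mean and libraries coloured by dose. Fzd6 sits at the right at each dose, between 29.7 and 69.7 RPKM at 100 ng/mL, while the Sfrp1 points at 100 ng/mL lie left of all its others.

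At 100 ng/mL most tested Wnt genes were lower than in unstimulated cells. By edgeR's quasi-likelihood test with Benjamini-Hochberg adjustment over all 17650 genes tested, 19 of the 28 members were called at a threshold of 0.05, where 42.9% of all genes were called. Of the 28, 17 were lower, where 21.5% of all genes were called lower, and only Fzd4 and Fzd9 were higher, where 21.4% of all genes were called higher. The median log2 fold change of the 28 was -0.76, against 0.01 over all genes. The fall was at least 2-fold in 12 members, which 8.29% of all genes reached, and in 12 of the 28 every 100 ng/mL library lay below every unstimulated one, as in 13.7% of all genes. In bulk RNA, fewer cells of a type and less RNA per cell cannot be told apart. At 10 ng/mL none of the 28 was called against unstimulated, where 0% of all genes were called.

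**Figure D2:**
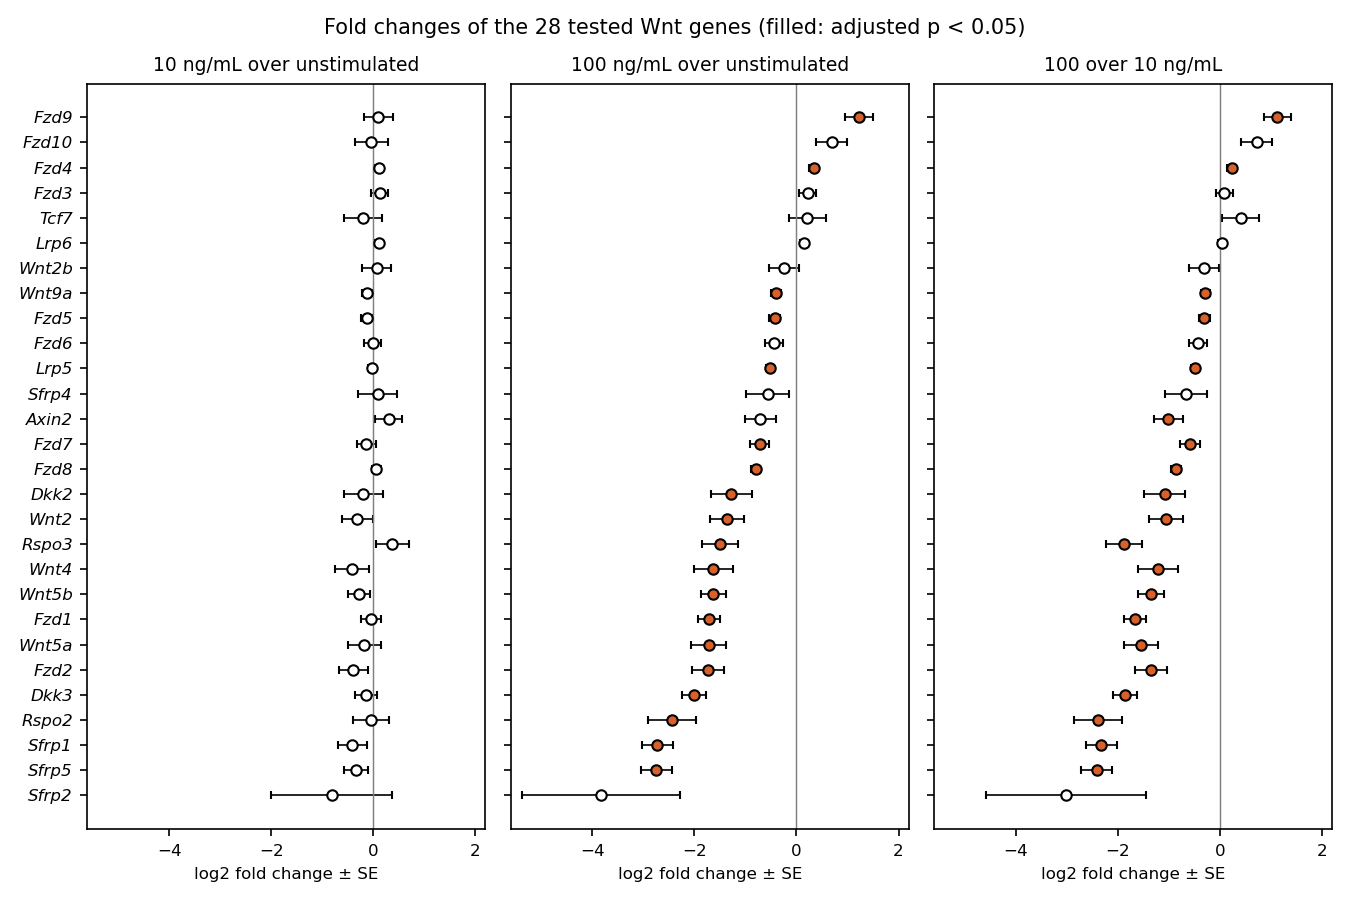
Log2 fold change with its standard error for the 28 tested Wnt genes in the 3 comparisons, in panels for 10 ng/mL over unstimulated, 100 ng/mL over unstimulated and 100 over 10 ng/mL. Filled points have an adjusted p under 0.05 (edgeR); at 100 ng/mL over unstimulated 17 filled points lie left of 0 and 2 right of it, and at 10 ng/mL over unstimulated no point is filled.

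Among the ligands, 5 of the 6 tested fell at 100 ng/mL, where 21.5% of all genes were called lower, and none rose. Wnt5a, the best known ligand of the β-catenin-independent branch, had 21.6, 11.7, 22.7, 10.6 and 20.6 CPM in unstimulated libraries A to E, 10.6, 23.1, 8.7, 14.7 and 20.4 CPM at 10 ng/mL, and 2.97, 9.18, 4.97, 3.82 and 5.55 CPM at 100 ng/mL. Every 100 ng/mL library lay below every unstimulated library, with 100 ng/mL B the highest of its group. Its log2 fold change at 100 ng/mL over unstimulated was -1.72 ± 0.34 (SE, adjusted p = 8.78e-04, edgeR), a level 3.29-fold lower. Wnt5b, its close relative, had 1.28, 1.24, 1.71, 2.09 and 2.42 CPM in unstimulated libraries A to E, 1.04, 1.57, 1.78, 1.66 and 1.16 CPM at 10 ng/mL, and 0.416, 0.782, 0.412, 0.696 and 0.534 CPM at 100 ng/mL. The 100 ng/mL libraries lay below all 10 others, and the fall of 3.09-fold (-1.63 ± 0.24, adjusted p = 8.44e-05, edgeR) had the smallest p among the ligands.

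Wnt4, a ligand used in kidney and reproductive tract development, had 2.02, 0.956, 2.19, 0.984 and 1.45 CPM in unstimulated libraries A to E, 0.847, 1.83, 0.502, 1.26 and 1.34 CPM at 10 ng/mL, and 0.242, 0.575, 0.368, 0.404 and 0.845 CPM at 100 ng/mL. The 100 ng/mL and unstimulated libraries did not overlap (log2 fold change -1.63 ± 0.38, adjusted p = 0.00302, edgeR). Wnt2, a β-catenin-branch ligand known for its role in lung development, had 1.47, 0.825, 2.38, 1.4 and 1.75 CPM in unstimulated libraries A to E, 0.558, 2.02, 1.06, 1.41 and 1.31 CPM at 10 ng/mL, and 0.602, 0.621, 0.844, 0.335 and 0.603 CPM at 100 ng/mL. Unstimulated B, at 0.825 CPM, lay just under 100 ng/mL C, at 0.844 CPM, so the groups overlapped in this 1 pair of libraries, and the log2 fold change was -1.37 ± 0.34 (adjusted p = 0.00404, edgeR). Wnt9a, a ligand of joint and skeletal development, had 8.39, 8.28, 8.27, 7.78 and 6.37 CPM in unstimulated libraries A to E, 7.84, 6.67, 7.9, 6.12 and 7.52 CPM at 10 ng/mL, and 5.85, 5.37, 6.0, 6.53 and 5.92 CPM at 100 ng/mL. Its fall was the smallest of the 5 called ligands at 1.32-fold (-0.40 ± 0.09, adjusted p = 0.00336, edgeR), and unstimulated E lay below 100 ng/mL D. Wnt2b averaged 0.816 ± 0.354 CPM in unstimulated cells, 0.861 ± 0.223 CPM at 10 ng/mL and 0.697 ± 0.155 CPM at 100 ng/mL, with a log2 fold change of -0.24 ± 0.29 that did not pass the test (adjusted p = 0.543, edgeR).

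The mean makeup of the ligand RNA differed at 100 ng/mL from the other doses, a difference that was not tested. Wnt5a made up 32.8% ± 6.56 of the summed ligand RPKM in unstimulated cells, 32.8% ± 8.14 at 10 ng/mL and 19.2% ± 6.53 at 100 ng/mL, while Wnt9a made up 34.4% ± 7.03, 36.2% ± 8.61 and 49.99% ± 7.10. The ligand sum itself was 3.77 ± 0.637 RPKM in unstimulated cells, 3.24 ± 0.542 RPKM at 10 ng/mL and 1.89 ± 0.203 RPKM at 100 ng/mL. Shares can move because other genes of the sum move.

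The other 13 ligands were too low to test. Summed over the 5 libraries of a group, Wnt6 had estimated counts of 21.3, 13.1 and 41.2 in unstimulated cells, at 10 ng/mL and at 100 ng/mL, Wnt7b had 48.6, 30.0 and 31.8, Wnt9b had 37.7, 35.4 and 39.5 and Wnt10b had 17.2, 27.3 and 20.8. Wnt11 had 35.2, 29.7 and 12.3 and Wnt16 47.7, 32.1 and 16 in the same order. Wnt3, Wnt7a, Wnt8b and Wnt10a had at most 10.9 in any group, and Wnt3a and Wnt8a at most 2.0. Wnt1, Wnt3a and Wnt8a, classical activators of the β-catenin branch, were thus at or near 0, with Wnt1 at a summed count of 1.3 in unstimulated cells and 0 in both VEGF-C groups.

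**Figure D3:**
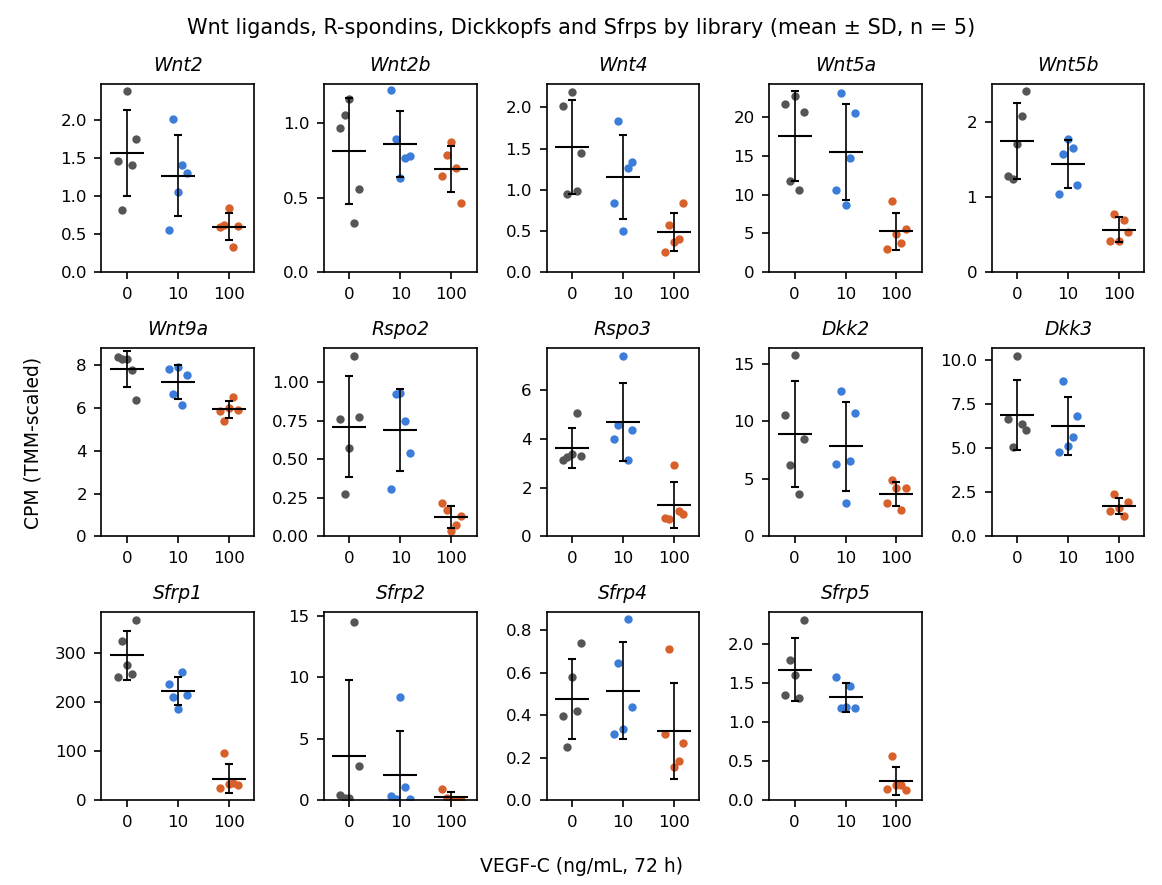
CPM of the 14 tested secreted members (Wnt ligands, R-spondins, Dickkopfs and Sfrps) in each library at 0, 10 and 100 ng/mL of VEGF-C, with bars for the mean ± SD of 5 libraries and a linear axis from 0 that differs between panels. The 100 ng/mL points of Wnt5b, Dkk3, Sfrp1 and Sfrp5 lie below all points of both other groups, while those of Wnt2b and Sfrp4 overlap them.

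All 10 Frizzled receptors were tested, and at 100 ng/mL against unstimulated 5 fell, 2 rose and 3 did not pass the test. Of all genes 21.5% were called lower and 21.4% higher, so the share of Frizzleds that rose (20%) was near that of all genes. Fzd1, a receptor of the β-catenin branch, had 8.98, 7.94, 11.5, 14.2 and 12.00 CPM in unstimulated libraries A to E, 7.48, 11.98, 13.1, 11.3 and 8.93 CPM at 10 ng/mL, and 3.36, 4.76, 2.56, 2.35 and 3.64 CPM at 100 ng/mL. The 100 ng/mL libraries lay below all 10 others, a fall of 3.27-fold (-1.71 ± 0.22, adjusted p = 1.63e-05, edgeR). Fzd2, which binds Wnt5a among others, had 2.77, 2.72, 3.18, 5.56 and 6.55 CPM in unstimulated libraries A to E, 2.46, 2.97, 4.03, 3.91 and 2.5 CPM at 10 ng/mL, and 1.1, 2.28, 0.875, 1.07 and 0.962 CPM at 100 ng/mL. Again no 100 ng/mL library reached the lowest of the others, although 100 ng/mL B stood well above its group, and the fall was 3.32-fold (-1.73 ± 0.32, adjusted p = 4.44e-04, edgeR).

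Fzd8 had 25.2, 29.1, 28.3, 33.3 and 31.8 CPM in unstimulated libraries A to E, 30.9, 31.4, 34.05, 29.8 and 27.7 CPM at 10 ng/mL, and 17.3, 19.5, 14.4, 17.8 and 15.9 CPM at 100 ng/mL. The groups were tight and did not overlap, and the log2 fold change of -0.80 ± 0.09 had the smallest adjusted p of the receptors (5.86e-06, edgeR). Fzd7, close in sequence to Fzd1 and Fzd2, had 16.6, 15.9, 22.1, 18.2 and 28.6 CPM in unstimulated libraries A to E, 16.01, 20.7, 17.5, 22.1 and 16.1 CPM at 10 ng/mL, and 10.23, 18.7, 10.6, 11.1 and 10.9 CPM at 100 ng/mL. Here 100 ng/mL B lay inside the unstimulated range and the other 4 libraries of its group below it (-0.72 ± 0.19, adjusted p = 0.0068, edgeR). Fzd5, a Frizzled needed for yolk sac and placental blood vessels in mice, had 15.7, 17.6, 16.5, 20.1 and 21.3 CPM in unstimulated libraries A to E, 17.04, 15.8, 17.00, 18.6 and 15.1 CPM at 10 ng/mL, and 14.1, 16.6, 11.6, 12.9 and 12.6 CPM at 100 ng/mL. Its groups overlapped through 100 ng/mL B as well, at 16.6 CPM against an unstimulated low of 15.7 CPM (-0.43 ± 0.11, adjusted p = 0.00429, edgeR).

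The 2 receptors that rose were Fzd4 and Fzd9. Fzd4, the endothelial receptor that responds to norrin as well as to Wnts, had 55.00, 63.6, 61.2, 61.9 and 68.3 CPM in unstimulated libraries A to E, 63.1, 67.4, 65.7, 74.2 and 62.9 CPM at 10 ng/mL, and 86.99, 89.5, 64.9, 75.5 and 74.3 CPM at 100 ng/mL. Unstimulated E and 100 ng/mL C were the only libraries that crossed, and the rise was 1.26-fold (0.34 ± 0.08, adjusted p = 0.00466, edgeR). Fzd9 had 0.329, 0.596, 0.324, 0.734 and 0.572 CPM in unstimulated libraries A to E, 0.476, 0.645, 0.719, 0.421 and 0.467 CPM at 10 ng/mL, and 1.43, 0.966, 0.686, 1.57 and 1.28 CPM at 100 ng/mL. Its level was 2.34-fold higher at 100 ng/mL than in unstimulated cells (1.23 ± 0.27, adjusted p = 0.00178, edgeR), with an overlap of 100 ng/mL C and unstimulated D only.

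Fzd6, the most abundant member, had 498, 509.7, 487, 497 and 403 CPM in unstimulated libraries A to E, 492, 463, 493, 426 and 503 CPM at 10 ng/mL, and 296, 234, 553, 303 and 384 CPM at 100 ng/mL. At 100 ng/mL 1 library, C, was the highest of all 15 at 553 CPM, and the other 4 lay below every unstimulated library. The log2 fold change of -0.44 ± 0.17 did not pass the test (adjusted p = 0.0523, edgeR), and it did without 100 ng/mL C (-0.66, adjusted p = 0.000505) and under 8 of the other alternatives. Fzd3, a planar polarity receptor of neurons, averaged 1.56 ± 0.366 CPM in unstimulated cells, 1.71 ± 0.286 CPM at 10 ng/mL and 1.82 ± 0.276 CPM at 100 ng/mL (0.22 ± 0.17, adjusted p = 0.318, edgeR). Fzd10 averaged 0.29 ± 0.138 CPM in unstimulated cells, 0.277 ± 0.0656 CPM at 10 ng/mL and 0.463 ± 0.165 CPM at 100 ng/mL (0.69 ± 0.31, adjusted p = 0.0835, edgeR). Neither of these passed the test, although Fzd10 did in 4 of 25 alternatives, among them the fits without unstimulated E (1.02, adjusted p = 0.0104, edgeR) and without 100 ng/mL B (0.83, adjusted p = 0.0342, edgeR).

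The co-receptors differed from each other. Lrp5, whose loss impairs vessels of the eye in mice, had 387, 378, 383, 412 and 356 CPM in unstimulated libraries A to E, 377, 372, 434, 365 and 338 CPM at 10 ng/mL, and 316, 245, 254, 271 and 258 CPM at 100 ng/mL. All 100 ng/mL libraries lay below all 10 others, a fall of 1.43-fold (-0.51 ± 0.08, adjusted p = 8.23e-05, edgeR). Lrp6, its close relative and the co-receptor needed more widely in development, had 133, 145, 154, 135 and 117 CPM in unstimulated libraries A to E, 147, 156, 156, 129 and 149.6 CPM at 10 ng/mL, and 155, 132, 169, 149.9 and 153 CPM at 100 ng/mL. Its groups overlapped, with a log2 fold change of 0.15 ± 0.08 (adjusted p = 0.137, edgeR). Lrp5 made up 73.9% ± 1.8 of the summed Lrp5 and Lrp6 RPKM in unstimulated cells, 72.0% ± 1.97 at 10 ng/mL and 64.0% ± 2.6 at 100 ng/mL. The lowest share in unstimulated cells, 71.5%, was above the highest at 100 ng/mL, 67.2%.

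**Figure D4:**
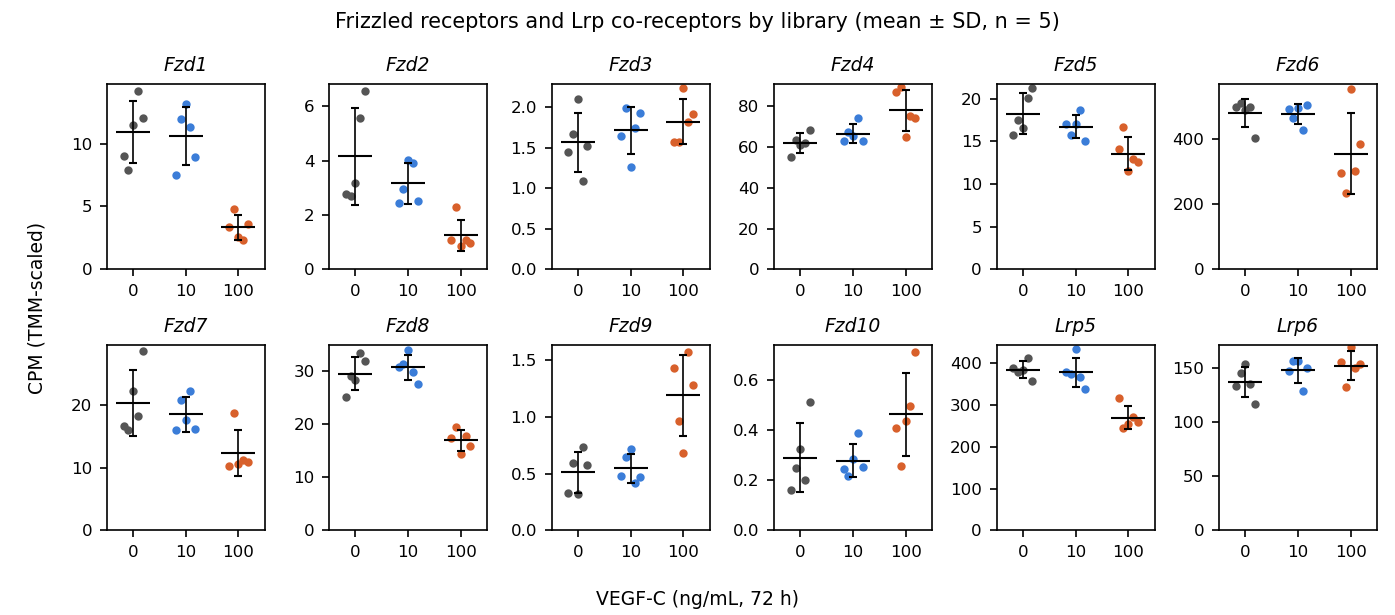
CPM of the 10 Frizzled receptors and of Lrp5 and Lrp6 in each library at 0, 10 and 100 ng/mL of VEGF-C, with bars for the mean ± SD of 5 libraries and a linear axis from 0 that differs between panels. The Fzd1, Fzd2, Fzd8 and Lrp5 points at 100 ng/mL lie below all others, those of Fzd4 and Fzd9 tend upward with overlap, and 1 Fzd6 library at 100 ng/mL, at 553 CPM, is the highest of the panel.

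Both tested R-spondins fell at 100 ng/mL, where 21.5% of all genes were called lower. Rspo3, which is needed in mice for placental and embryonic vessels, had 3.14, 3.25, 3.39, 5.05 and 3.27 CPM in unstimulated libraries A to E, 3.97, 4.55, 7.37, 3.13 and 4.35 CPM at 10 ng/mL, and 0.743, 0.723, 2.94, 1.05 and 0.912 CPM at 100 ng/mL. No 100 ng/mL library reached the lowest of the others, though 100 ng/mL C, at 2.94 CPM, came close to it, and the fall was 2.83-fold (-1.50 ± 0.35, adjusted p = 0.00306, edgeR). Rspo2, known for limb and lung development, had 0.762, 0.273, 0.572, 1.17 and 0.778 CPM in unstimulated libraries A to E, 0.307, 0.924, 0.928, 0.751 and 0.539 CPM at 10 ng/mL, and 0.22, 0.169, 0.0353, 0.0769 and 0.131 CPM at 100 ng/mL. It was low throughout and lower in every 100 ng/mL library than in any other library (-2.43 ± 0.47, adjusted p = 7.11e-04, edgeR). Rspo3 held 87.8% ± 3.92 of the summed R-spondin RPKM in unstimulated cells, 90.1% ± 3.82 at 10 ng/mL and 90.4% ± 6.80 at 100 ng/mL, so its share moved by less than the spread between libraries. Rspo1 and Rspo4 had summed estimated counts of at most 0.5 in any group.

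Of the 4 Dickkopfs 2 were tested, and both fell at 100 ng/mL, where 21.5% of all genes were called lower. Dkk3, a Dickkopf family member whose action on Lrp5 and Lrp6 is not settled, had 6.68, 5.09, 10.26, 6.39 and 6.03 CPM in unstimulated libraries A to E, 4.81, 8.82, 5.12, 5.66 and 6.85 CPM at 10 ng/mL, and 1.44, 2.38, 1.63, 1.17 and 1.95 CPM at 100 ng/mL. The 100 ng/mL libraries lay below all 10 others, a fall of 4.0-fold (-2.00 ± 0.23, adjusted p = 7.57e-06, edgeR). Dkk2, which binds Lrp5 and Lrp6, had 10.6, 6.19, 15.7, 3.67 and 8.46 CPM in unstimulated libraries A to E, 6.29, 12.6, 2.88, 6.58 and 10.8 CPM at 10 ng/mL, and 2.89, 4.88, 4.17, 2.26 and 4.22 CPM at 100 ng/mL. Unstimulated D, at 3.67 CPM, lay inside the 100 ng/mL range, and the log2 fold change of -1.27 ± 0.40 (adjusted p = 0.0189, edgeR) did not pass the test without unstimulated C (-0.97, adjusted p = 0.0622). Dkk1, the classical Lrp5 and Lrp6 blocker, had summed estimated counts of 7.6, 6.1 and 3.8 in unstimulated cells, at 10 ng/mL and at 100 ng/mL, and Dkk4 had 1.1, 1.1 and 1.2.

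Of the 4 Sfrps found by the symbol rule, all tested, 2 fell, where 21.5% of all genes were called lower, and none rose. Sfrp1 had 252, 325, 275, 258 and 367 CPM in unstimulated libraries A to E, 238, 210.2, 187, 262 and 215 CPM at 10 ng/mL, and 24.5, 97.01, 34.4, 35.8 and 31.4 CPM at 100 ng/mL. The highest 100 ng/mL library, B, was at 97.0 CPM and the lowest of the others, 10 ng/mL C, at 187 CPM, so the groups did not meet. At 6.63-fold (-2.73 ± 0.31, adjusted p = 5.75e-06, edgeR) its fall was behind those of Sfrp2 and Sfrp5 alone in size, and without 100 ng/mL B the log2 fold change was -3.23. Sfrp5, of the same subfamily as Sfrp1 and Sfrp2, had 1.34, 1.8, 1.61, 1.31 and 2.3 CPM in unstimulated libraries A to E, 1.57, 1.18, 1.19, 1.46 and 1.18 CPM at 10 ng/mL, and 0.151, 0.569, 0.199, 0.192 and 0.133 CPM at 100 ng/mL. It had the smallest adjusted p of all members (4.22e-06, edgeR), with a log2 fold change of -2.75 ± 0.30 that was -3.29 without 100 ng/mL B, the highest library of its group. Sfrp1 made up 95.5% ± 4.92 of the summed Sfrp RPKM in unstimulated cells, 95.9% ± 4.08 at 10 ng/mL and 95.1% ± 4.13 at 100 ng/mL, so its share moved by less than the spread between libraries.

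Sfrp2, which fibroblasts secrete, had 0.45, 0.234, 0.166, 14.5 and 2.79 CPM in unstimulated libraries A to E, 0.334, 0.153, 8.45, 1.12 and 0.0867 CPM at 10 ng/mL, and 0.942, 0.211, 0, 0.0365 and 0.0576 CPM at 100 ng/mL. A few libraries carried its level: unstimulated D and 10 ng/mL C stood far above all others. Its log2 fold change of -3.83 ± 1.54 was the largest of the members but did not pass the test (adjusted p = 0.0577, edgeR), and it was -1.87 without unstimulated D (adjusted p = 0.343) and -5.55 without 100 ng/mL A (adjusted p = 0.0443). It passed in 6 of 24 alternatives. Sfrp4 averaged 0.478 ± 0.188 CPM in unstimulated cells, 0.516 ± 0.229 CPM at 10 ng/mL and 0.327 ± 0.225 CPM at 100 ng/mL (-0.56 ± 0.42, adjusted p = 0.30, edgeR), and its groups overlapped. Without 100 ng/mL B, the highest library of its group, the log2 fold change passed the test, at -1.04 (adjusted p = 0.0429, edgeR), and at 100 over 10 ng/mL it was then -1.13 (adjusted p = 0.0304, edgeR).

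Axin2, Tcf7 and Lef1 were low in every group. Axin2, a scaffold of the β-catenin destruction complex and a direct target of the pathway, had 0.44, 0.216, 0.404, 0.386 and 0.515 CPM in unstimulated libraries A to E, 0.573, 0.346, 0.696, 0.267 and 0.512 CPM at 10 ng/mL, and 0.151, 0.29, 0.256, 0.221 and 0.247 CPM at 100 ng/mL. At 100 ng/mL over unstimulated its log2 fold change of -0.71 ± 0.30 did not pass the test (adjusted p = 0.0691, edgeR). At 100 over 10 ng/mL it was -1.01 ± 0.29 (adjusted p = 0.0117, edgeR), with only 100 ng/mL B above the lowest 10 ng/mL library. Tcf7 averaged 0.486 ± 0.182 CPM in unstimulated cells, 0.414 ± 0.132 CPM at 10 ng/mL and 0.559 ± 0.301 CPM at 100 ng/mL (0.21 ± 0.36 at 100 ng/mL over unstimulated, adjusted p = 0.682, edgeR). Lef1 was not tested, with summed estimated counts of 41.4, 38.7 and 25 in unstimulated cells, at 10 ng/mL and at 100 ng/mL.

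Between 100 and 10 ng/mL, a comparison that shares the 100 ng/mL libraries with the one above, 20 of the 28 members were called, where 40.5% of all genes were called. Of these 18 were lower, where 20.6% of all genes were called lower, and the same 2 receptors were higher, where 19.9% of all genes were called higher. The 18 were the 17 above and Axin2. The log2 fold changes at 100 over 10 ng/mL were -2.32 ± 0.30 for Sfrp1, -2.41 ± 0.30 for Sfrp5, -1.87 ± 0.35 for Rspo3, -1.86 ± 0.23 for Dkk3 and -1.55 ± 0.34 for Wnt5a. Fzd9 rose (1.13 ± 0.26, adjusted p = 0.00333, edgeR). Fzd4 rose too (0.23 ± 0.08, adjusted p = 0.039, edgeR). Of the 20 calls, 7 were lost under some alternatives, each of them when some single libraries were left out. The Fzd4 call was lost in 14 of 26 alternatives and the Dkk2 call (-1.08 ± 0.40, adjusted p = 0.0436, edgeR) in 15 of 25. The Wnt9a call was lost in 7 of 25, the Fzd5 call in 7 of 26, the Fzd7 call in 5 of 26, and the Wnt2 and Wnt4 calls in 4 of 25 each, with adjusted p (edgeR or limma) of at most 0.0764 over the alternatives of these 5 genes. Fzd6, not called here (adjusted p = 0.0603, edgeR), passed in 7 of 26. In 10 of the 28 every 100 ng/mL library lay below every 10 ng/mL one, as in 12.9% of all genes.

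Between 10 ng/mL and unstimulated cells the 28 log2 fold changes lay between -0.81 (Sfrp2) and 0.37 (Rspo3), with 19 below 0 and 9 above. None was called, none had an unadjusted p under 0.05, and the smallest adjusted p was 0.969 (edgeR). Over all genes edgeR called 0, limma-voom 0 and the DESeq2 Wald test 10, none of them a member by any of the 3, and 844 genes (4.78%) had an unadjusted p under 0.05 in edgeR. Sfrp1 averaged 296 ± 49.3 CPM in unstimulated cells, 222 ± 28.5 CPM at 10 ng/mL and 44.6 ± 29.6 CPM at 100 ng/mL. Its log2 fold change at 10 ng/mL was -0.41 ± 0.29, and that of Sfrp5 was -0.34 ± 0.24. In both genes the libraries of these 2 groups overlapped.

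Markers of cell types were also called at 100 ng/mL against unstimulated, in directions that differed between the lists. Of 13 tested fibroblastic and mural markers, 12 were lower at 100 ng/mL than in unstimulated cells, where 21.5% of all genes were, and Rgs5 was not called. The LECs were defined as Pdpn+ CD31+ CD45- cells, and whether the sequenced cultures held cells outside that definition was not tested. Dcn averaged 30.9 ± 18.3 CPM at 100 ng/mL and 759.6 ± 259.8 CPM in unstimulated cells, Acta2 averaged 18.7 ± 16.7 CPM at 100 ng/mL and 299.9 ± 64.2 CPM in unstimulated cells and Pdgfra averaged 3.87 ± 1.3 CPM at 100 ng/mL and 17.7 ± 9.38 CPM in unstimulated cells. The other 5 markers of that list, Lum, Ccl19, Cxcl13, Tcf21 and Dpt, were at or near 0 in all groups, with Ccl19 at 0 in every unstimulated library. Of 11 tested leukocyte markers 9 were lower, with summed levels of 24.0 to 44.2 CPM at 100 ng/mL, against 52.8 to 143 CPM in unstimulated cells. Of 7 epithelial markers 5 were lower and 1 higher, of 10 blood endothelial markers 3 were lower and 1 higher, of 12 pan-endothelial markers 3 were lower and 9 higher, and of 10 lymphatic markers 3 were lower and 4 higher. Of all genes 21.4% were called higher and 21.5% lower. With 4 of 10 called, the blood endothelial markers were called about as often as all genes, at 42.9%.

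The order of the libraries within each group was set beside the fibroblastic and mural sum for all 28 members, as a description. From high to low that sum ran C, A, E, B, D in unstimulated cells, B, E, A, D, C at 10 ng/mL and B, E, C, D, A at 100 ng/mL. Wnt5a and Dkk2 had the sum's whole order in unstimulated cells and Wnt5a had it at 100 ng/mL, while no member had it at 10 ng/mL. Wnt5a, Dkk2 and Dkk3 shared their highest library with the sum in all 3 groups, and Wnt2, Wnt4 and Fzd3 did so in unstimulated cells and at 10 ng/mL. The leukocyte sum had the same highest library as the fibroblastic and mural sum in all 3 groups, so these matches hold for both sums. Sfrp1 ran E, B, C, D, A in unstimulated cells, D, A, E, B, C at 10 ng/mL and B, D, C, E, A at 100 ng/mL, so its highest and lowest libraries were those of the sum at 100 ng/mL and its highest was not at the lower doses. Sfrp2 was highest in unstimulated D, 10 ng/mL C and 100 ng/mL A, the libraries with the lowest fibroblastic and mural sums of their groups. The highest Sfrp1 library was also the highest of the blood endothelial sum in all 3 groups. There that sum was 3536 CPM in unstimulated cells, 3764.5 CPM at 10 ng/mL and 3146 CPM at 100 ng/mL. Fzd4, Fzd5, Fzd7 and Sfrp4 were highest in the same libraries, and Fzd6, Lrp6 and Wnt9a were lowest in them. The part of these markers in the Wnt results was not tested.

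**Figure D5:**
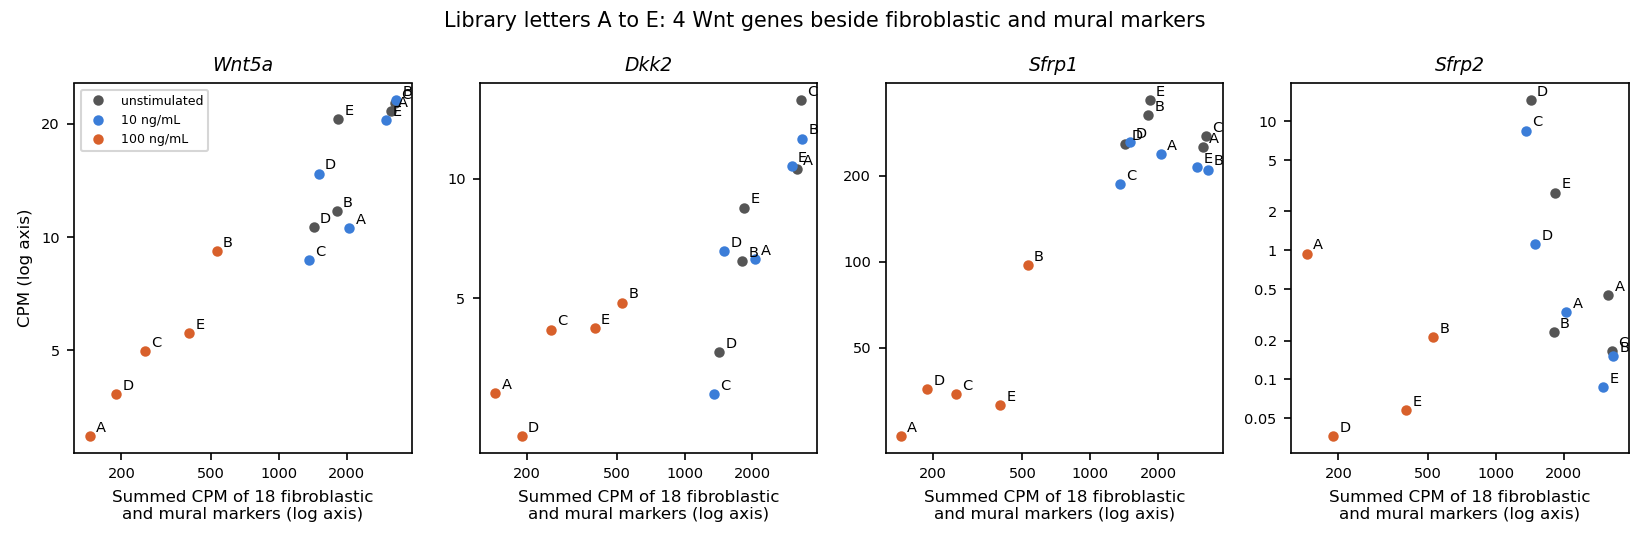
CPM of Wnt5a, Dkk2, Sfrp1 and Sfrp2 in each library (log axis, a value of 0 not drawn) against the summed CPM of 18 fibroblastic and mural markers in the same library (log axis), with letters for libraries and colours for dose. The 100 ng/mL libraries lie at 145 to 529 CPM of the marker sum and the others at 1355 to 3321 CPM; within a dose Wnt5a is ordered much as the sum is, and Sfrp2 is highest in unstimulated D, at a low sum.

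Further genes of the pathway, taken from 6 lists chosen with earlier results of these data known, were called in both directions at 100 ng/mL against unstimulated, where 21.4% of all genes were called higher and 21.5% lower, with a median log2 fold change of 0.01. Of 3 secretion genes, Wls, the carrier that brings Wnts to the surface, fell (-0.44 ± 0.10, adjusted p = 0.00224, edgeR) and none rose. Of 16 tested co-receptors and alternative receptors 8 fell and 2 rose, and the list's median log2 fold change was -0.25. The R-spondin receptor Lgr4 averaged 7.76 ± 1.81 CPM at 100 ng/mL and 14.97 ± 1.3 CPM in unstimulated cells (-0.95 ± 0.13, adjusted p = 3.75e-05, edgeR), and the Wnt receptor Ryk 90.7 ± 3.87 CPM at 100 ng/mL and 113 ± 6.02 CPM in unstimulated cells (-0.32 ± 0.05). The glypican Gpc4 fell too (-1.70 ± 0.31), whereas Adgra2, a co-receptor for Wnt7a and Wnt7b in brain endothelium, rose (0.67 ± 0.11). The Wnt5a receptors Ror1 and Ror2, named after their values were seen, changed by -2.07 ± 0.46 and -2.34 ± 0.57 on the log2 scale (adjusted p = 0.00211 and 0.00374, edgeR).

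Of 6 tested further Wnt antagonists, Igfbp4 rose (16.7%) and Tpbg and Apcdd1 fell (33.3%), so 50% were called, where 42.9% of all genes were. Igfbp4, which can bind Frizzled and Lrp6 beside its role for insulin-like growth factors, averaged 736 ± 139 CPM at 100 ng/mL and 278 ± 38.6 CPM in unstimulated cells (1.40 ± 0.15, adjusted p = 3.15e-06, edgeR). Of 31 tested cytoplasmic and nuclear relay genes 7 rose (22.6%) and 11 fell (35.5%), with a median of -0.04, so the share that rose was near that of all genes. The tankyrase Tnks2, which marks Axin for breakdown, rose (0.56 ± 0.05), as did the TCF corepressor Tle3 (0.61 ± 0.08), and the kinase Csnk1e (-0.42 ± 0.05) and the corepressor Tle4 (-0.34 ± 0.04) fell. Of 17 tested target genes 3 rose (17.6%) and 4 fell (23.5%), also with a median of -0.04, and the 41.2% called was near the 42.9% of all genes. Myc averaged 251 ± 47.04 CPM at 100 ng/mL and 120.1 ± 15.4 CPM in unstimulated cells (1.06 ± 0.13) and Sox17 rose (0.95 ± 0.16), whereas Sp5, a direct β-catenin target in several tissues, averaged 6.92 ± 6.6 CPM at 100 ng/mL and 40.97 ± 16.6 CPM in unstimulated cells (-2.57 ± 0.47, adjusted p = 4.51e-04, edgeR). Of 21 tested planar polarity and calcium genes 10 rose (47.6%) and 5 fell (23.8%), with a median of 0.21, so the share that fell was near that of all genes. The cadherin Dchs1 averaged 191 ± 38.6 CPM at 100 ng/mL and 36.04 ± 7.69 CPM in unstimulated cells (2.40 ± 0.16), and the core polarity gene Vangl1 (0.70 ± 0.05), the formin Daam1 (0.67 ± 0.06) and Rhoa (0.32 ± 0.04) rose as well. No gene of the 6 lists was called at 10 ng/mL against unstimulated.

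Genome positions of the members with the clearest changes are given on GRCm38 by GENCODE M21. Sfrp1 spans chr8:23411502-23449632 on the plus strand, Sfrp5 chr19:42197971-42202252 on the minus strand and Dkk3 chr7:112116017-112159057 on the minus strand. Wnt5a lies at chr14:28504750-28527448 on the plus strand, Wnt5b at chr6:119432531-119544347 on the minus strand and Fzd9 at chr5:135248938-135251230 on the minus strand. Of the 28 tested members 10 overlap another gene, and since how the authors used strand in counting is unknown from the sources used here, their values are uncertain by the reads of that neighbour. Wnt5b overlaps the protein-coding Fbxl14, and Wnt5a, Rspo3, Sfrp2, Axin2 and Tcf7 overlap antisense genes. Fzd3, Fzd5, Fzd6 and Wnt2b overlap noncoding, pseudogene or unclassified transcripts. Sfrp1, Sfrp5, Dkk3, Fzd4, Fzd9 and Lrp5 overlap no annotated gene.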

How the data were processed

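Messenger RNA from 15 libraries was sequenced after poly-A selection with a stranded kit, 5 at each of 0, 10 and 100 ng/mL VEGF-C for 72 h, per the labels' protocols. A table of 45706 genes deposited by the authors gives RPKM values and estimated counts per library, per its file headers. Of the nonzero estimated counts as deposited, 98% were fractional (tolerance 0.001). The RPKM values deposited by the authors use a library total 1.86 to 1.92 times the sum of the counts, which makes them lower than RPKM over counted reads. FastQC, Bowtie2, limma, GRCm38 and mm10 are named in the submitters' processing notes without versions. Which read counter was used, and with what strand setting, was not given in the sources used here.

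Counts were rounded, filtered with filterByExpr (17650 genes kept) and fitted in edgeR 4.0.16 (R 4.3.3, TMM scaling, quasi-likelihood test, group as the only term over all 15 libraries), with Benjamini-Hochberg adjustment over all kept genes and a threshold of 0.05. Replicate libraries always differed by more than counting noise (smallest chi-square per degree of freedom 8.68). Positions are those of GENCODE M21 on GRCm38, and the deposited start positions lie 2 bases lower for 36 of the 46 members.

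The members and the gene lists were chosen with earlier results of these data known. Every member is accounted for: those called at 100 ng/mL against unstimulated have the value of every library, other tested members their group means or libraries, and untested members their summed counts or upper limits. Of each further pathway list at most the 4 genes with the smallest p are named, apart from exceptions stated in the text. Alternatives were DESeq2 1.42.0 size factors and its Wald test, limma-voom (limma 3.58.1), library size alone, no filter, 10 CPM in 5 libraries, fits of the 10 libraries compared, a replicate block, limma on log2(RPKM + 1) and log2(RPKM + 0.1), leaving out each library and, added after seeing the data, leaving out 3 libraries together (100 ng/mL B, 10 ng/mL D and unstimulated E).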

Additional observations from a re-analysis of the deposited data

Results flagged for a closer look

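In groups of 5 libraries, 11 of 84 groups of the 28 tested members had 1 library far from the other 4 (a gap to its nearest neighbour above 0.71 of the group's range). For independent normal values this cut flags about 1 group in 20. These groups share the same 15 libraries, so that rate is no benchmark for them. Library B of the 100 ng/mL group was the far one in 5 of the 11, each time the highest. Fzd2 stood at 2.28 CPM there, with the other 4 libraries at 0.875 to 1.10 CPM. Fzd7 stood at 18.7 CPM, against 10.23 to 11.1 CPM, and Sfrp1 at 97.0 CPM, against 24.5 to 35.8 CPM. Sfrp4 stood at 0.712 CPM, against 0.155 to 0.312 CPM, and Sfrp5 at 0.569 CPM, against 0.133 to 0.199 CPM. The same library had the highest fibroblastic and mural marker sum of its group, 529 CPM. It was also highest in the leukocyte, epithelial and blood endothelial sums, at 44.2, 60.9 and 3146 CPM. In the lymphatic and pan-endothelial sums it was the lowest of its group. The part of these marker levels in the values above was not tested.

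Rspo3 was far above its group in 100 ng/mL C, at 2.94 CPM with the others at 0.723 to 1.05 CPM, and in unstimulated D, at 5.05 CPM with the others at 3.14 to 3.39 CPM. Sfrp2 was far above its group at all 3 doses, at 14.5 CPM in unstimulated D, 8.45 CPM in 10 ng/mL C and 0.942 CPM in 100 ng/mL A. Fzd6 was low in unstimulated E, at 402.6 CPM, with the others at 487 to 509.7 CPM.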

How the results depend on the processing

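No member reversed its direction under any alternative in which it was called in either fit. At 100 ng/mL against unstimulated the count of called members was 18 to 21 under the alternatives other than a filter of 10 CPM in 5 libraries, which tested only 10 members and called 9 (1 higher and 8 lower). Leaving out single libraries gave 19 to 21 called members, 2 to 3 higher and 17 to 19 lower. Without 100 ng/mL B, 10 ng/mL D and unstimulated E together, a choice made after seeing the data, 21 were called, 17 lower and 4 higher, with Fzd10 and Lrp6 added to Fzd4 and Fzd9. At 100 against 10 ng/mL the filter of 10 CPM called 8, of which 0 were higher and 8 lower. There 1 member was higher, not 2, under library size alone, in the fit of the 10 libraries compared and under both RPKM scales. Leaving out single libraries gave 15 to 20 called, 1 to 3 higher and 14 to 18 lower. The cause of these moves was not tested. At 10 ng/mL against unstimulated no member was called in any alternative. Axin2 at 100 ng/mL against unstimulated passed in 2 of 24 alternatives, without unstimulated B and without 10 ng/mL D. The log2(RPKM + 1) scale understates the change of low genes, for Wnt2 at -0.27.

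The letters A to E did not pair the libraries. The correlation of same-letter deviations lay between -0.342 and 0.132 over the 3 comparisons, and 0 of 5 letters matched best with themselves. The replicate block called 21 members (3 higher, 18 lower) at 100 ng/mL against unstimulated, 0 at 10 ng/mL and 18 (2 higher, 16 lower) at 100 against 10 ng/mL. In that last comparison the block lost Fzd4, Wnt9a, Fzd5 and Dkk2 and added Fzd10 as higher and Fzd6 as lower. Depth limits the 18 untested members, none of which reached an estimated count of 49 summed over a group.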

Other observations

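With no filter on low counts, 44 members could be fitted, and 2 ligands too low for the main test passed the threshold. Wnt7a had summed estimated counts of 9.7 in unstimulated cells, 10.9 at 10 ng/mL and 1.4 at 100 ng/mL, and was lower at 100 ng/mL than in unstimulated cells (adjusted p = 0.0440, edgeR) and than at 10 ng/mL (adjusted p = 0.0241, edgeR). Wnt6 had 41.2 at 100 ng/mL and 13.1 at 10 ng/mL and was higher at the higher dose (adjusted p = 0.00819, edgeR), while against the 21.3 of unstimulated cells it did not pass (adjusted p = 0.0630, edgeR). At such counts the fitted fold change depends on the prior count and is not given.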
